A study of Oryctolagus cuniculus with 15 samples.

Results

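Axon guidance ligands and receptors were examined in rabbit corneal keratocytes, the stromal cells of the cornea. They were chosen by symbol, as the genes that encode class 3 to 7 semaphorins, plexins, neuropilins, ephrins, Eph receptors, Slits, Robos, netrins, UNC5 receptors and DCC. The gene table holds 68 of them among 23428 genes: 7 secreted and 12 membrane-bound semaphorins, 11 semaphorin receptors (9 plexins and 2 neuropilins), 7 ephrins, 13 Eph receptors, 7 Slits and Robos, and 11 netrins and netrin receptors. Guidance ligands steer the growth cones of axons and the leading edges of migrating cells by binding receptors that act on the actin cytoskeleton. Secreted semaphorins bind neuropilins and plexins, Slits bind Robos, netrins bind DCC and UNC5 receptors, and ephrins, which stay on the cell surface, signal to Eph receptors on neighbouring cells. The cornea is densely innervated by sensory axons that cross the stroma, and both attractive and repulsive members of these families are known there.

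The libraries are bulk RNA-seq of first-passage New Zealand white rabbit keratocytes kept for 6 days in serum-free medium, with 3 libraries, each from pooled dishes or matrices of a separate experiment, for each of 5 conditions (n = 3 throughout). Cells were plated on a collagen-coated dish (2DC), on top of a fibrillar collagen matrix (2DF), or embedded in such a matrix at 100000 cells per matrix (3DF) or 50000 (3DF_50). The matrices were lifted and digested before the cells were pelleted and lysed, and 2DC dishes were given the same digestion medium for 15 min, whereas the coated dishes of the last condition (2DC_L) were lysed directly. All cells are primary, untransfected and from the same breed, and the p-values measure the spread between the 3 experiments of each condition. Library names begin with a prefix that some conditions share in part, and what it marks is not given in the sources used here.

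Between 14626982 and 31804255 reads were counted per library. Keratocyte markers summed to between 20150 and 43124 FPKM in every library (8 of the 11 listed are in the table). FPKM are fragments per kilobase of gene, scaled to a library size set by the authors. Corneal endothelial markers summed to 631 to 1721 FPKM, and the sum was highest in 3DF_50 through AQP1 (a mean of 1369 FPKM, against 222 in 2DC), while COL8A2 (74.7 against 304 FPKM), COL8A1 and SLC4A4 were lowest there. Immune markers summed to at most 8.35 FPKM and corneal epithelial markers to at most 34.3 FPKM. The keratins of the latter list were highest in 3DF, with means of 3.53 FPKM for KRT12 (0 on coated dishes), 4.43 for KRT5 (0.240 in 2DC) and 1.25 for KRT3 (0.0555 in 2DC), and their part in the changes of 3DF was not tested. The vascular endothelial list summed to 123.6 to 127.5 FPKM in 3DF and to at most 82.3 FPKM elsewhere, most of it KDR in 3DF, with the defining markers PECAM1 and CLDN5 at no more than 5 counts in any library. Its members CDH5 (2.23 to 5.47 FPKM over the condition means, highest in 2DF) and EMCN (2.41 in 2DC_L to 7.63 FPKM in 3DF) reached 404 and 784 counts. The Schwann cell and nerve list ran from 59.8 to 75.4 FPKM on coated dishes and from 29.3 to 47.0 FPKM in the fibrillar conditions. Within it the 2DC, 3DF and 3DF_50 means were 48.9, 21.6 and 14.97 FPKM for PMP22 and 8.68, 13.0 and 14.3 FPKM for MBP, and that of MBP was thus highest where that of PMP22 was lowest. In bulk RNA, fewer cells that express a gene and less of its RNA per cell cannot be told apart.

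The keratocytes expressed members of every family. A mean of at least 1 FPKM over the 15 libraries was reached by 43 of the 68 genes, and 24 reached 10 FPKM. The gene with the highest level in the whole set was NTN4, a netrin of basement membranes (chromosome 4, 74877411 to 75006130 in oryCun2, the build of all positions here), at a mean of 247 FPKM, or 89.5% of the summed netrin group. Next came the Slit ligand SLIT3 at 109 FPKM, the secreted semaphorins SEMA3C at 84.0 FPKM and SEMA3F at 75.8 FPKM, and the ligand SLIT2 at 52.6 FPKM. The leading receptors were PLXNB2, a receptor of class 4 semaphorins (unplaced scaffold Un0207, 207101 to 226034), at 50.0 FPKM, and EPHB4, a receptor of ephrin-B ligands (chromosome 6, 27025676 to 27042745), at 49.0 FPKM. EFNA5 led the ephrins at 20.5 FPKM and SEMA5A the membrane semaphorins at 16.6 FPKM.

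At the other end, 5 members had no more than 3 counts in any library: the netrin receptors DCC, UNC5A and UNC5C, the netrin NTN5 and the receptor EPHA8. Each of them had reads in some libraries, at counts too low for a level to be given at this depth. In all, 14 members had too few counts to be tested in any comparison, with means of at most 0.162 FPKM and at most 21 counts in a library. The netrin receptors tested were UNC5B and UNC5D.

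**Figure D1:**
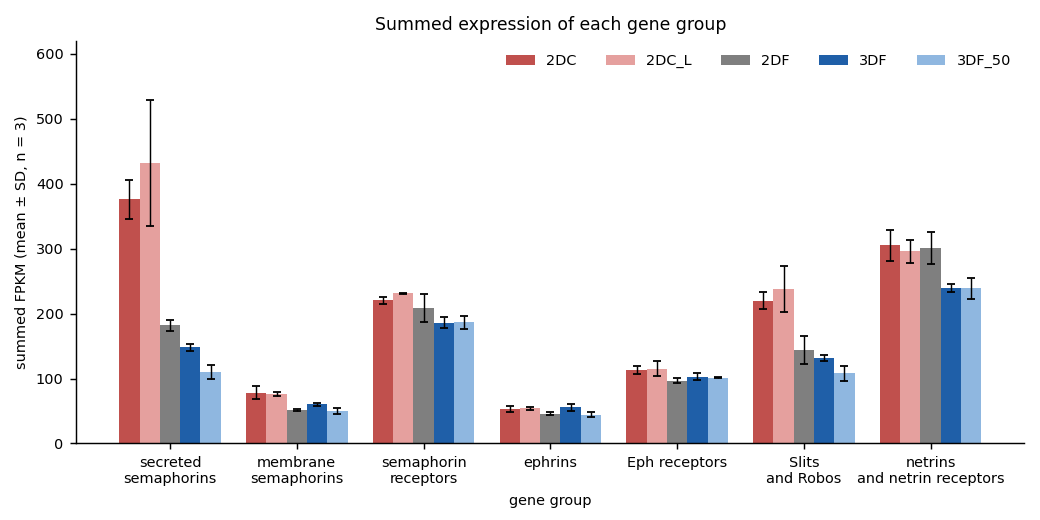
Summed FPKM of the genes of each family (y axis, mean ± SD, n = 3) in 5 culture conditions (bar colours). Secreted semaphorins were at 376 ± 29.8 FPKM in 2DC and 148 ± 5.65 FPKM in 3DF, Slits and Robos at 219.8 ± 12.9 and 132 ± 5.32 FPKM, and the mean ephrin sum lay between 44.0 and 55.5 FPKM.

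The coated libraries were apart from the matrix libraries in the sums of secreted semaphorins, membrane semaphorins, and Slits and Robos. Secreted semaphorins summed to 346 to 405 FPKM in 2DC and 365 to 543 FPKM in 2DC_L, against 173 to 189.8 FPKM in 2DF, 142 to 153 FPKM in 3DF and 100.3 to 123 FPKM in 3DF_50. The highest library of any matrix condition was thus below the lowest coated library. Slits and Robos were likewise apart, at 212 to 279 FPKM on coated dishes and 98.6 to 168 FPKM in the matrices, and so were membrane semaphorins, at 66.2 to 84.6 and 44.9 to 62.8 FPKM. The library size behind these FPKM was 0.921 to 0.995 of the total counts in coated libraries and 0.985 to 1.24 in matrix libraries. Scaling by total counts would raise most matrix sums relative to the coated ones. The sums were not computed that way, and the gap for membrane semaphorins is narrow. How often sums of other genes set coated apart from matrix libraries was not computed either. Sums of ephrins (39.5 to 59.6 FPKM), Eph receptors (92.8 to 122 FPKM), semaphorin receptors (175 to 232 FPKM) and netrins with their receptors (220.1 to 332 FPKM) overlapped between coated and matrix libraries. Of the 43 genes with at least 1 FPKM, 19 had their highest mean in 2DC_L and 9 in 2DC, and 22 had their lowest in 3DF_50. Over all 11173 genes at that level the shares were 24.43% highest in 2DC_L, 10.54% highest in 2DC and 26.69% lowest in 3DF_50.

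**Figure D2:**
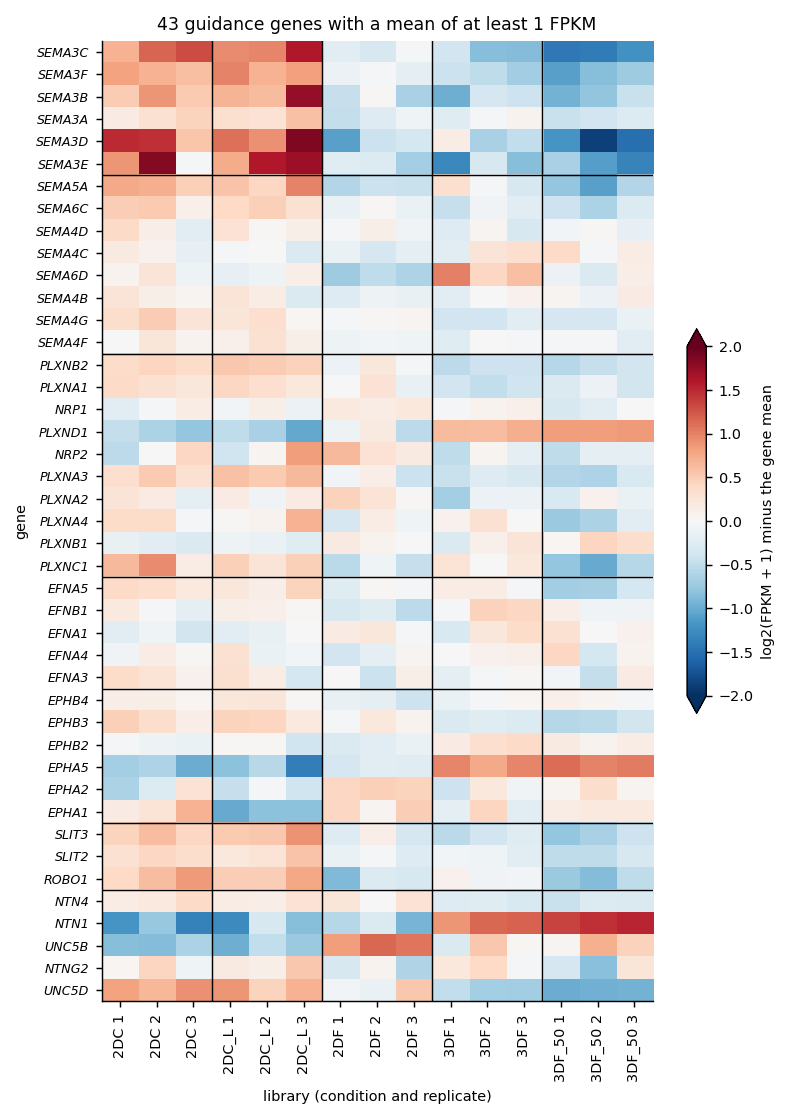
log2(FPKM + 1) minus the mean of the gene over 15 libraries (colour, ± 2 at the limits) for the 43 members with a mean of at least 1 FPKM (rows, grouped by family) in each library (columns, grouped by condition). SEMA3B, SEMA3C, SEMA3D and SEMA3F lie above their mean (red) in all 6 coated libraries, SEMA3E does so in all but 2DC replicate 3, and EPHA5 and NTN1 lie above their mean in the 6 embedded libraries and below it in the others.

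Keratocytes embedded in collagen had less RNA of most secreted semaphorins and more of NTN1, UNC5B, PLXND1 and EPHA5 than those on coated dishes. Genes were called differentially expressed (DEGs) where the adjusted p of edgeR's quasi-likelihood F test, by the method of Benjamini and Hochberg over all genes tested, did not exceed 0.05 and the change was 1 or more on the log2 scale in either direction. Between 3DF and 2DC, 12 of 54 members tested (22.2%) were DEGs, 5 higher and 7 lower in 3DF, where 7.56% of all genes tested were DEGs (3.24% higher and 4.32% lower). The median log2 fold change was -0.32 over the members and 0.01 over all genes tested. In 2DF vs. 2DC, which shares the 2DC libraries, 10 of 52 members (19.2%) were DEGs, 1 higher and 9 lower, against 4.96% of all genes (2.04% higher and 2.93% lower), and the median was -0.39 over members and 0.0045 over all genes. In 3DF vs. 2DF there were 6 DEGs among 54 members (11.1%), 4 higher and 2 lower, against 3.78% of all genes (2.09% higher and 1.69% lower). Scaled by library size alone this split was 5 higher and 1 lower, and SEMA3B (-0.89) and EPHA4 (-0.94) in 2DF vs. 2DC and UNC5B (-0.94) in 3DF vs. 2DF were inside the fold limit. With the library prefix as a block in a fit of all 5 conditions, where 2DF shares 1 prefix with any other condition, edgeR called 0 members in 2DF vs. 2DC and 0 in 3DF vs. 2DF, with 14 and 11 at an unadjusted p under 0.05. The same fit called 11 members in 3DF vs. 2DC, where it lost SEMA3D and UNC5B and added SLIT3.

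More members had an adjusted p of 0.05 or less in edgeR when changes of any size were counted. For 3DF vs. 2DC, 26 of 54 members (48.1%) did so, 7 higher and 19 lower, where 15.4% of all genes did (6.98% higher and 8.38% lower). In 2DF vs. 2DC there were 24 of 52 (46.2%), 3 higher and 21 lower, against 14.4% of all genes (6.73% higher and 7.63% lower). In 3DF_50 vs. 2DC_L there were 32 of 51 (62.7%), 7 higher and 25 lower, against 42.9% (20.8% higher and 22.1% lower).

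A second comparison of embedded with coated cells uses none of the libraries of 3DF vs. 2DC. In 3DF_50 vs. 2DC_L, 21 of 51 members tested (41.2%) were DEGs, 5 higher and 16 lower, against 13.5% of all genes (5.05% higher and 8.47% lower), with a median log2 fold change of -0.64 over the members and 0.0040 over all genes. Here only the matrices were given digestion medium, so that digestion and matrix cannot be told apart. Of the 12 DEGs of 3DF vs. 2DC, 11 (91.7%) were DEGs in the same direction in 3DF_50 vs. 2DC_L, which is 52.4% of the 21. The 12th, EPHA3, had too few counts to be tested there. The share of all DEGs of 3DF vs. 2DC that recurred in this way was not computed, so the 91.7% cannot be read as particular to guidance genes. In all 6 comparisons reported, 23 members were DEGs at least once. The share of all genes that were DEGs at least once was not computed, so the 23 cannot be set against it.

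**Figure D3:**
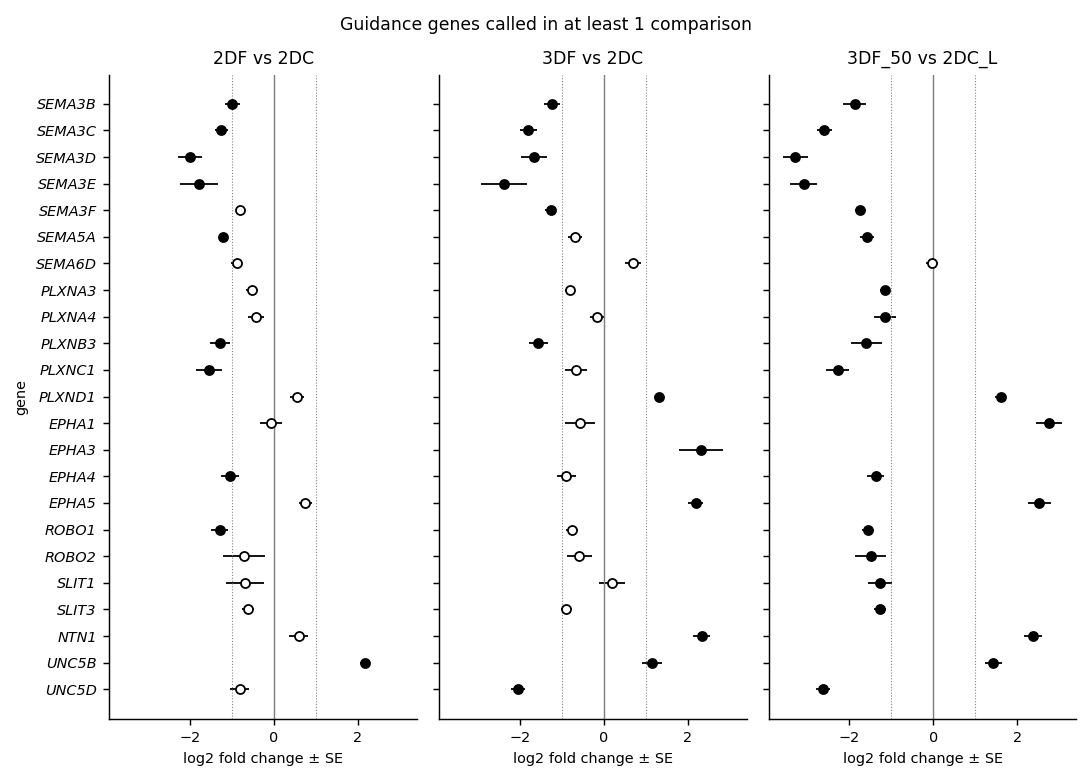
log2 fold change ± SE from edgeR (x axis) of the 23 members that were DEGs in at least 1 comparison (rows), for 2DF vs. 2DC, 3DF vs. 2DC and 3DF_50 vs. 2DC_L. Filled points are DEGs, open points are not, a missing point was not tested, and dotted lines mark the fold limit of 1 in each direction.

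The class 3 semaphorins had the largest share of DEGs of any family in all 3 comparisons of a matrix with a coated dish. These secreted proteins repel or attract axons and endothelial cells through neuropilin and plexin complexes. Lower DEGs were 5 of the 7 in 3DF vs. 2DC, with a family median of -1.27 on the log2 scale, 4 in 2DF vs. 2DC, with a median of -1.001, and 5 in 3DF_50 vs. 2DC_L, with a median of -1.88. SEMA3C (chromosome 7, 35039304 to 35224930), which signals through both neuropilins, was at 108, 149.9 and 165 FPKM in 2DC, 128, 132 and 203 in 2DC_L, 57.2, 53.1 and 65.5 in 2DF, 50.5, 36.2 and 35.9 in 3DF, and 23.8, 24.4 and 28.0 in 3DF_50. Every coated library was above every matrix library, and the 3DF_50 libraries were the lowest of all. SEMA3C fell by 1.80 on the log2 scale in 3DF vs. 2DC (adjusted p = 0.000823 in edgeR, SE 0.20), by 1.26 in 2DF vs. 2DC (adjusted p = 0.00163 in edgeR, SE 0.16) and by 2.60 in 3DF_50 vs. 2DC_L (adjusted p = 5.26e-06 in edgeR, SE 0.18).

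SEMA3F (chromosome 9, 17636008 to 17657796), a ligand of NRP2, was at 119, 109.8 and 103 FPKM in 2DC, 136, 111 and 120.1 in 2DC_L, 62.2, 66.7 and 59.6 in 2DF, 50.0, 47.6 and 41.4 in 3DF, and 31.5, 37.2 and 41.1 in 3DF_50. The coated libraries were close to one another, and those of 2DF lay between them and the embedded libraries without overlap. The log2 fold change was -1.27 in 3DF vs. 2DC (adjusted p = 0.000439 in edgeR, SE 0.12) and -1.74 in 3DF_50 vs. 2DC_L (adjusted p = 6.14e-06 in edgeR, SE 0.12), while in 2DF vs. 2DC it was -0.81 (adjusted p = 0.000996 in edgeR, SE 0.09), short of the fold limit. SEMA3B lies 64796 bases from SEMA3F on the same chromosome (17722593 to 17733640) and encodes another neuropilin ligand. Its levels were 53.7, 69.6 and 54.3 FPKM in 2DC, 60.7, 58.3 and 129 in 2DC_L, 27.0, 37.9 and 23.5 in 2DF, 18.6, 29.4 and 27.7 in 3DF, and 18.8, 21.1 and 27.2 in 3DF_50. Replicate 3 of 2DC_L stood far above the other coated libraries, and no coated library fell to the level of a matrix library. SEMA3B fell by 1.24 in 3DF vs. 2DC (adjusted p = 0.00435 in edgeR, SE 0.20) and by 1.88 in 3DF_50 vs. 2DC_L (adjusted p = 0.000584 in edgeR, SE 0.28). The fall of 1.00 in 2DF vs. 2DC (adjusted p = 0.0072 in edgeR) lay at the fold limit, and it was -0.87 without 2DC replicate 2, -0.94 without 2DF replicate 1 and -0.86 without 2DF replicate 3.

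**Figure D4:**
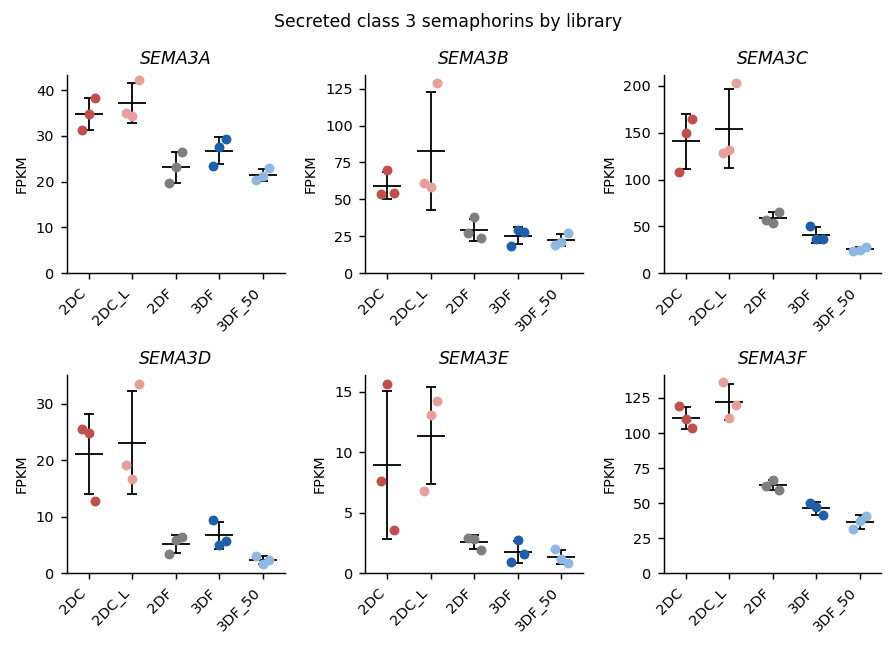
FPKM (y axis) of SEMA3A to SEMA3F in each library (points) of the 5 culture conditions (x axis), with the mean ± SD (bars, n = 3). For each of SEMA3B, SEMA3C, SEMA3D, SEMA3E and SEMA3F the lowest coated library lies above the highest matrix library. The share of all genes that are apart in this way was not computed.

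SEMA3D and SEMA3E are neighbours of SEMA3A on chromosome 10 (42911188 to 43193330 and 44317219 to 44565598). SEMA3D was at 25.6, 24.8 and 12.9 FPKM in 2DC, 19.2, 16.8 and 33.5 in 2DC_L, 3.41, 5.96 and 6.39 in 2DF, 9.46, 5.03 and 5.69 in 3DF, and 3.16, 1.59 and 2.31 in 3DF_50. The coated libraries varied widely among themselves and still did not overlap the matrix libraries. Its log2 fold change was -1.66 in 3DF vs. 2DC (adjusted p = 0.00884 in edgeR, SE 0.31), -2.00 in 2DF vs. 2DC (adjusted p = 0.00314 in edgeR, SE 0.29) and -3.29 in 3DF_50 vs. 2DC_L (adjusted p = 2.22e-05 in edgeR, SE 0.30). With the prefix block SEMA3D was no longer a DEG in 3DF vs. 2DC, at -1.45 (adjusted p = 0.0822 in edgeR). In oryCun2 SEMA3D overlaps 1973 bases of an uncharacterised gene on the other strand, and the sources do not say whether strand was used in counting.

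SEMA3E, the class 3 member that binds PLXND1 without a neuropilin, was at 7.63, 15.6 and 3.56 FPKM in 2DC, 6.82, 13.1 and 14.2 in 2DC_L, 2.95, 2.84 and 1.90 in 2DF, 0.913, 2.72 and 1.59 in 3DF, and 1.98, 1.17 and 0.854 in 3DF_50. The 2DC libraries spread over more than 4-fold, and the lowest of them was only just above the highest 2DF library. Its fall of 3.09 in 3DF_50 vs. 2DC_L (adjusted p = 6.12e-05 in edgeR, SE 0.33) was a DEG in each fit without 1 library. The falls of 2.37 in 3DF vs. 2DC (adjusted p = 0.0224 in edgeR, SE 0.55) and 1.79 in 2DF vs. 2DC (adjusted p = 0.0317 in edgeR, SE 0.46) were not DEGs in every such fit. Over these fits the log2 fold change was -2.86 to -1.70 in 3DF vs. 2DC and -2.17 to -1.12 in 2DF vs. 2DC, beyond the fold limit. The adjusted p of SEMA3E in edgeR for 3DF vs. 2DC was 0.0686 without 2DC replicate 2, 0.0521 without 3DF replicate 1 and 0.0772 without 3DF replicate 3, and in 2DF vs. 2DC it was 0.0801 without 2DC replicate 2 and 0.0908 to 0.0958 without any 1 of the 2DF libraries.

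The remaining secreted semaphorins did not reach the fold limit. SEMA3A, the founding growth-cone repellent, was at 31.4 to 42.3 FPKM on coated dishes and 19.8 to 29.3 FPKM in the matrices, with log2 fold changes of -0.39 in 3DF vs. 2DC, -0.59 in 2DF vs. 2DC and -0.79 in 3DF_50 vs. 2DC_L (edgeR adjusted p = 0.0872, 0.0127 and 0.00017). SEMA3G stayed at 0.169 to 0.625 FPKM. Between 3DF and 2DF none of the 7 was a DEG in edgeR, DESeq2 or limma, and 2 had an unadjusted p under 0.05 in edgeR. In the 5 pairs of an embedded and a coated library with the same name prefix, log2 ratios of FPKM were between -2.86 and -1.70 for SEMA3C and between -3.86 and -0.45 for SEMA3D. The embedded library was lower in all 5 for each of SEMA3B, SEMA3C, SEMA3D, SEMA3E and SEMA3F. That had to be so, since their embedded and coated libraries did not overlap.

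Of the 12 membrane-bound semaphorins, 8 were tested and 2 were DEGs in any comparison, SEMA5A and SEMA6D. SEMA5A (chromosome 11, 86468054 to 86836758), a transmembrane semaphorin with thrombospondin repeats, was at 26.1, 25.4 and 21.3 FPKM in 2DC, 22.9, 20.4 and 30.8 in 2DC_L, 9.65, 10.9 and 10.8 in 2DF, 19.0, 14.7 and 11.9 in 3DF, and 8.39, 6.54 and 9.69 in 3DF_50. The 2DF libraries were tight and lower than every 3DF library. SEMA5A fell by 1.21 in 2DF vs. 2DC (adjusted p = 0.000313 in edgeR, SE 0.10) and by 1.58 in 3DF_50 vs. 2DC_L (adjusted p = 7.94e-05 in edgeR, SE 0.17), and its value in 3DF vs. 2DC was -0.69 (adjusted p = 0.032 in edgeR, SE 0.18).

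SEMA6D (chromosome 17, 24798373 to 24854528), a transmembrane ligand of class A plexins, was at 4.66, 5.47 and 4.04 FPKM in 2DC, 3.79, 4.05 and 4.90 in 2DC_L, 2.31, 2.79 and 2.50 in 2DF, 9.84, 6.16 and 7.18 in 3DF, and 3.96, 3.42 and 4.91 in 3DF_50. All 3DF libraries were above all the others and all 2DF libraries below them. The rise of 1.61 in 3DF vs. 2DF was a DEG (adjusted p = 0.00136 in edgeR, SE 0.19) in each fit without 1 library. Between 3DF and 2DC the log2 fold change was 0.70 (adjusted p = 0.038 in edgeR), in 2DF vs. 2DC -0.89 (adjusted p = 0.00288 in edgeR) and in 3DF vs. 3DF_50 0.89 (adjusted p = 0.0798 in edgeR, SE 0.20). The other tested membrane semaphorins, SEMA4B, SEMA4C, SEMA4D, SEMA4F, SEMA4G and SEMA6C, were not DEGs in any of the 6 comparisons. SEMA4A, SEMA5B, SEMA6A and SEMA7A had too few counts to be tested.

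The semaphorin receptors changed in both directions. PLXND1 (chromosome 9, 10971737 to 11009001), the receptor of SEMA3E, was at 19.5, 17.5 and 15.7 FPKM in 2DC, 19.1, 17.4 and 13.0 in 2DC_L, 25.6, 31.6 and 19.0 in 2DF, 43.6, 42.9 and 46.5 in 3DF, and 50.2, 50.2 and 50.7 in 3DF_50. The embedded libraries were all higher than the 2DF libraries, of which 1 overlapped the coated range. PLXND1 rose by 1.33 in 3DF vs. 2DC (adjusted p = 0.000341 in edgeR, SE 0.12) and by 1.61 in 3DF_50 vs. 2DC_L (adjusted p = 1.35e-05 in edgeR, SE 0.13), and its values in 3DF vs. 2DF (0.81, adjusted p = 0.0255 in edgeR, SE 0.18) and 2DF vs. 2DC (0.54, adjusted p = 0.0663 in edgeR, SE 0.17) were below the fold limit. The mean of its ligand SEMA3E was lowest in 3DF_50, where that of PLXND1 was highest. Members of the vascular endothelial list given above differed in pattern. EMCN (means of 2.63 FPKM in 2DC, 7.63 in 3DF and 7.38 in 3DF_50) was higher in both embedded conditions, as PLXND1 was. So was TEK, at 0.0207, 0.0659 and 0.0611 FPKM. KDR, most of the summed list, was at 46.0, 114 and 61.1 FPKM, and CDH5 was highest in 2DF. PECAM1 was lower in embedded cells, near the floor. The part of these genes in the change of PLXND1 was not tested.

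PLXNB3 (unplaced scaffold Un0118, 643198 to 656918), a receptor of SEMA5A, was at 1.13, 1.23 and 0.797 FPKM in 2DC, 1.34, 0.857 and 1.4998 in 2DC_L, 0.467, 0.435 and 0.377 in 2DF, 0.339, 0.347 and 0.397 in 3DF, and 0.427, 0.181 and 0.595 in 3DF_50. Its coated libraries were all above its matrix libraries. The log2 fold change was -1.55 in 3DF vs. 2DC (adjusted p = 0.00339 in edgeR, SE 0.23), -1.30 in 2DF vs. 2DC (adjusted p = 0.0078 in edgeR, SE 0.23) and -1.60 in 3DF_50 vs. 2DC_L (adjusted p = 0.00596 in edgeR, SE 0.37). With the prefix block, PLXNB3 had 0.18 in 2DF vs. 2DC (adjusted p = 0.96 in edgeR).

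PLXNC1 (chromosome 4, 73487978 to 73644654), the receptor of SEMA7A, was at 2.93, 3.86 and 1.80 FPKM in 2DC, 2.49, 2.02 and 2.52 in 2DC_L, 0.730, 1.37 and 0.819 in 2DF, 2.03, 1.49 and 1.92 in 3DF, and 0.476, 0.256 and 0.697 in 3DF_50. The 3DF libraries overlapped those of 2DC and did not overlap those of 2DF or 3DF_50. It fell by 1.55 in 2DF vs. 2DC (adjusted p = 0.0125 in edgeR, SE 0.31) and by 2.28 in 3DF_50 vs. 2DC_L (adjusted p = 0.000164 in edgeR, SE 0.28). The fall in 2DF vs. 2DC had an edgeR adjusted p of 0.0559 without 2DC replicate 2 and 0.0602 without 2DF replicate 1. Between 3DF and 2DC the value was -0.67 (adjusted p = 0.134 in edgeR, SE 0.27). Within name prefixes, PLXNC1 was lower in the embedded library in 4 of 5 pairs, with log2 ratios between -3.02 and 0.18.

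Class A plexins form the signalling part of neuropilin complexes. PLXNA3 and PLXNA4 were lower DEGs in 3DF_50 vs. 2DC_L, and PLXNB2 stayed within the fold limit. PLXNB2 was at 62.0 to 69.8 FPKM on coated dishes, 44.1 to 56.2 FPKM in 2DF and 31.8 to 37.0 FPKM in 3DF and 3DF_50, with log2 fold changes of -0.86 in 3DF vs. 2DC (adjusted p = 0.00121 in edgeR) and -0.98 in 3DF_50 vs. 2DC_L (adjusted p = 2.03e-05 in edgeR). PLXNA3 (unplaced scaffold Un0118, 87967 to 103146) was at 18.0, 20.6 and 17.5 FPKM in 2DC, 21.4, 20.5 and 22.4 in 2DC_L, 13.4, 15.3 and 10.1 in 2DF, 9.9998, 11.5 and 11.0 in 3DF, and 8.96, 8.72 and 11.1 in 3DF_50. All its coated libraries were above all its matrix libraries. PLXNA3 fell by 1.16 in 3DF_50 vs. 2DC_L (adjusted p = 2.08e-05 in edgeR, SE 0.10). PLXNA4 (chromosome 7, 10616087 to 11050449) was at 3.68, 3.68 and 2.55 FPKM in 2DC, 2.71, 2.82 and 4.86 in 2DC_L, 1.89, 3.03 and 2.43 in 2DF, 2.85, 3.49 and 2.61 in 3DF, and 1.18, 1.34 and 2.10 in 3DF_50. Only the 3DF_50 libraries were below all coated ones. Its fall of 1.15 (adjusted p = 0.00524 in edgeR, SE 0.26) was -0.84 without 2DC_L replicate 3 and -0.99 without 3DF_50 replicate 1, and 9743 bases of the gene overlap another on the other strand. The neuropilins, which hold the ligand-binding domains for class 3 semaphorins, were not DEGs in any comparison, with NRP1 at 29.9 to 43.5 FPKM and NRP2 at 10.4 to 28.4 FPKM over all libraries.

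Ephrins, the cell-surface ligands of Eph receptors, gave no DEG in any of the 6 comparisons with edgeR, DESeq2 or limma. Of the 7 ephrins, 3 had an unadjusted edgeR p under 0.05 in 2DF vs. 2DC, 2 of 5 tested in 3DF_50 vs. 2DC_L, 1 each in 3DF vs. 2DF and 3DF vs. 3DF_50, and 0 in 3DF vs. 2DC and 2DC vs. 2DC_L. Their log2 fold changes lay between -0.45 and 0.37 in 3DF vs. 2DC. EFNA5 (chromosome 11, 26857280 to 27169088), the leading member, was at 26.5, 25.4 and 22.9 FPKM in 2DC, 23.5, 21.9 and 27.5 in 2DC_L, 16.7, 20.3 and 19.4 in 2DF, 22.3, 22.1 and 19.6 in 3DF, and 11.97, 12.2 and 15.5 in 3DF_50. The 3DF_50 libraries were below all others, and those of 2DF were below all coated libraries. Its log2 fold change was -0.87 in 3DF_50 vs. 2DC_L (adjusted p = 0.000361 in edgeR, SE 0.12).

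Eph receptors are tyrosine kinases, of which EPHA5, EPHA4, EPHA3 and EPHA1 were DEGs in at least 1 comparison. EPHA5 (chromosome 15, 83966369 to 84333984), an ephrin-A receptor, was at 1.69, 1.80 and 1.16 FPKM in 2DC, 1.44, 1.95 and 0.657 in 2DC_L, 2.44, 2.69 and 2.65 in 2DF, 7.53, 6.29 and 7.54 in 3DF, and 8.38, 7.56 and 7.89 in 3DF_50. The embedded libraries were all above 6 FPKM, the 2DF libraries were tight, and the coated libraries were below both. EPHA5 rose by 2.19 in 3DF vs. 2DC (adjusted p = 0.000225 in edgeR, SE 0.18), by 1.46 in 3DF vs. 2DF (adjusted p = 0.00052 in edgeR, SE 0.14) and by 2.53 in 3DF_50 vs. 2DC_L (adjusted p = 7.44e-05 in edgeR, SE 0.27). In 2DF vs. 2DC the value was 0.74 (adjusted p = 0.0164 in edgeR, SE 0.16).

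EPHA4 (chromosome 7, 162722604 to 162881129), which binds ephrins of both classes, was at 1.46, 1.59 and 1.01 FPKM in 2DC, 1.45, 1.18 and 1.83 in 2DC_L, 0.583, 0.683 and 0.684 in 2DF, 0.870, 0.690 and 0.643 in 3DF, and 0.526, 0.559 and 0.614 in 3DF_50. No matrix library reached the coated range. It fell by 1.38 in 3DF_50 vs. 2DC_L (adjusted p = 0.000406 in edgeR, SE 0.20) and by 1.05 in 2DF vs. 2DC (adjusted p = 0.012 in edgeR, SE 0.21), the latter being -0.99 without 2DC replicate 1, -0.93 without 2DC replicate 2 and -0.98 without 2DF replicate 1. For 3DF vs. 2DC the value was -0.89 (adjusted p = 0.0285 in edgeR).

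EPHA3 (chromosome 14, 127467592 to 127859183), another ephrin-A receptor, was near the floor. It was at 0.0541, 0.0241 and 0.00798 FPKM in 2DC, 0.0672, 0.049995 and 0.0426 in 2DC_L, 0.0302, 0.0200 and 0.0203 in 2DF, 0.176, 0.133 and 0.157 in 3DF, and 0.0800, 0.0571 and 0.0269 in 3DF_50, with 1 to 9 counts per library in 2DC, 2 to 3 in 2DF and 17 to 25 in 3DF. All 3DF libraries were above the other 12. Its rises of 2.31 in 3DF vs. 2DC (adjusted p = 0.0197 in edgeR, SE 0.52) and 2.67 in 3DF vs. 2DF (adjusted p = 0.0123 in edgeR, SE 0.50) were not DEGs without 3DF replicate 3 (adjusted p = 0.0618 and 0.0537 in edgeR). The first was also lost without 2DC replicate 2 or 3 (adjusted p = 0.0905 and 0.0507 in edgeR), and the second without 2DF replicate 2 or 3 (adjusted p = 0.0529 and 0.0593 in edgeR). No 2DC or 2DF library reached the minimum count of 10 set in the filter, so EPHA3 entered both tests only through its 3DF libraries. It is still counted among the 12 DEGs of 3DF vs. 2DC and the 6 of 3DF vs. 2DF. How many of all DEGs entered a test through 1 condition alone was not computed. The abundant Eph receptors did not reach the fold limit. EPHB4 was at 36.1 to 58.0 FPKM over all libraries, EPHB3 at 35.9 to 45.5 FPKM on coated dishes and 21.6 to 27.3 FPKM in embedded cells, and EPHB2 at 9.69 to 17.5 FPKM.

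Slits are secreted repellents that bind Robo receptors. Of the 6 members tested, 4 were lower DEGs in 3DF_50 vs. 2DC_L, 1 in 2DF vs. 2DC and 0 in 3DF vs. 2DC by edgeR, DESeq2 or limma, where 3 had an unadjusted p under 0.05 in edgeR. SLIT3 (chromosome 3, 50061197 to 50712067) was at 140.3, 157 and 136 FPKM in 2DC, 147, 149.9 and 192 in 2DC_L, 85.8, 113 and 81.3 in 2DF, 69.9, 78.4 and 86.2 in 3DF, and 59.6, 65.1 and 76.9 in 3DF_50. Every coated library was above every matrix library. The log2 fold change was -0.90 in 3DF vs. 2DC (adjusted p = 0.00338 in edgeR, SE 0.13), below the fold limit, and -1.28 in 3DF_50 vs. 2DC_L (adjusted p = 0.000102 in edgeR, SE 0.15), a DEG. With the prefix block SLIT3 had -1.11 in 3DF vs. 2DC (adjusted p = 0.00152 in edgeR) and was a DEG there too. SLIT2 (chromosome 2, 10849860 to 11247761), the related ligand, was at 59.4 to 76.1 FPKM on coated dishes and 35.6 to 49.8 FPKM in the matrices, with log2 fold changes of -0.49 in 3DF vs. 2DC (adjusted p = 0.018 in edgeR) and -0.82 in 3DF_50 vs. 2DC_L (adjusted p = 0.000364 in edgeR).

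ROBO1 (chromosome 14, 137720770 to 138960874), the Slit receptor with the highest level, was at 7.17, 8.50 and 10.2 FPKM in 2DC, 7.77, 7.74 and 9.64 in 2DC_L, 2.36, 4.11 and 3.98 in 2DF, 5.60, 4.93 and 4.95 in 3DF, and 2.72, 2.40 and 3.36 in 3DF_50. The 3DF libraries lay between the coated libraries and the other matrix libraries without overlap. ROBO1 fell by 1.30 in 2DF vs. 2DC (adjusted p = 0.00418 in edgeR, SE 0.20) and by 1.56 in 3DF_50 vs. 2DC_L (adjusted p = 1.79e-05 in edgeR, SE 0.13). Its value of -0.75 in 3DF vs. 2DC (adjusted p = 0.0106 in edgeR, SE 0.14) was within the fold limit. In oryCun2 both SLIT3 and ROBO1 overlap an uncharacterised gene on the other strand, by 25487 and 566 bases.

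ROBO2 and SLIT1 were expressed at low levels. ROBO2 (chromosome 14, 139979739 to 140600791), a related Slit receptor, was at 0.152, 0.139 and 0.163 FPKM in 2DC, 0.155, 0.205 and 0.284 in 2DC_L, 0.0561, 0.0433 and 0.176 in 2DF, 0.126, 0.0965 and 0.0811 in 3DF, and 0.0681, 0.1001 and 0.0555 in 3DF_50. Its highest 2DF library overlapped the coated range, and its 3DF_50 libraries did not. ROBO2 fell by 1.495 in 3DF_50 vs. 2DC_L, from 41 to 53 counts per library to 10 to 17 (adjusted p = 0.00877 in edgeR, SE 0.37). SLIT1 (chromosome 18, 45269563 to 45439166) was at 0.552, 0.450 and 0.266 FPKM in 2DC, 0.443, 0.305 and 0.382 in 2DC_L, 0.107, 0.407 and 0.272 in 2DF, 0.584, 0.425 and 0.455 in 3DF, and 0.179, 0.139 and 0.146 in 3DF_50. The 3DF_50 libraries were below all coated and 3DF libraries. SLIT1 fell by 1.28 in 3DF_50 vs. 2DC_L (adjusted p = 0.00523 in edgeR, SE 0.28), and with the prefix block the value was -1.01 (adjusted p = 0.0750 in edgeR), no longer a DEG. Scaled by library size alone, which moved the median over all genes in 3DF_50 vs. 2DC_L to 0.36 on the log2 scale, the values of SLIT3, SLIT1, PLXNA3 and PLXNA4 were -0.92, -0.92, -0.80 and -0.80, inside the fold limit.

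Among netrins and their receptors, NTN1 and UNC5B rose and UNC5D fell. NTN1 (chromosome 19, 10173170 to 10368240), a secreted laminin-related protein that attracts axons through DCC and repels them through UNC5 receptors, was at 4.83, 6.83 and 4.17 FPKM in 2DC, 4.43, 9.52 and 6.32 in 2DC_L, 7.90, 9.74 and 5.92 in 2DF, 23.2, 28.1 and 28.9 in 3DF, and 32.5, 35.1 and 37.1 in 3DF_50. Embedded libraries were all above 23 FPKM and the others all below 10 FPKM, with 2DF and coated libraries overlapping. NTN1 rose by 2.33 in 3DF vs. 2DC (adjusted p = 0.00027 in edgeR, SE 0.20), by 1.77 in 3DF vs. 2DF (adjusted p = 0.000948 in edgeR, SE 0.19) and by 2.37 in 3DF_50 vs. 2DC_L (adjusted p = 2.82e-05 in edgeR, SE 0.22). In 2DF vs. 2DC the value was 0.58 (adjusted p = 0.122 in edgeR, SE 0.23). NTN4, the netrin with the highest level, was at 271, 278 and 316 FPKM in 2DC, 268, 266 and 296 in 2DC_L, 288, 244 and 295 in 2DF, 202, 205 and 197 in 3DF, and 179, 201 and 198 in 3DF_50. Its 2DF libraries overlapped the coated ones and its embedded libraries were lower than all of them, with a log2 fold change of -0.53 in 3DF vs. 2DC (adjusted p = 0.0188 in edgeR, SE 0.12). Scaled by library size alone, NTN4 had -0.35 in that comparison (adjusted p = 0.089 in edgeR).

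The 2 UNC5 receptors tested, which mediate repulsion by netrin, went in opposite directions. UNC5B (chromosome 18, 15906998 to 15977725) was at 2.45, 2.42 and 3.02 FPKM in 2DC, 2.16, 3.44 and 2.72 in 2DC_L, 10.2, 12.9 and 12.1 in 2DF, 4.11, 8.11 and 5.35 in 3DF, and 5.50, 9.20 and 7.59 in 3DF_50. The 2DF libraries were the highest, the embedded libraries came next, and neither overlapped the coated libraries. UNC5B rose by 2.17 in 2DF vs. 2DC (adjusted p = 4.18e-05 in edgeR, SE 0.12), the only higher DEG among the members there, and by 1.42 in 3DF_50 vs. 2DC_L (adjusted p = 0.000431 in edgeR, SE 0.21). Its rise of 1.15 in 3DF vs. 2DC (adjusted p = 0.0153 in edgeR, SE 0.24) was 0.83 without 3DF replicate 2 and had an edgeR adjusted p of 0.0705 without 2DC replicate 2. With the prefix block that rise was 0.92 (adjusted p = 0.0515 in edgeR), and UNC5B was no longer a DEG. Its fall of 1.00 in 3DF vs. 2DF (adjusted p = 0.0278 in edgeR, SE 0.23) was a DEG in only 1 of the 6 fits without a library, and ranged from -1.09 (without 2DF replicate 1) to -0.80 (without 3DF replicate 1) over the 5 others.

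UNC5D (chromosome 2, 71997500 to 72579217) was at 4.80, 4.26 and 5.29 FPKM in 2DC, 5.17, 3.52 and 4.37 in 2DC_L, 2.22, 2.03 and 3.86 in 2DF, 1.36, 1.08 and 1.07 in 3DF, and 0.667, 0.704 and 0.730 in 3DF_50. The 3DF_50 libraries were below those of 3DF, both were below all others, and 2DF replicate 3 was above 1 of the coated libraries. UNC5D fell by 2.04 in 3DF vs. 2DC (adjusted p = 0.000184 in edgeR, SE 0.16), by 2.63 in 3DF_50 vs. 2DC_L (adjusted p = 2.92e-06 in edgeR, SE 0.17) and by 1.20 in 3DF vs. 2DF (adjusted p = 0.0232 in edgeR, SE 0.26). The last value was -0.86 without 2DF replicate 3 and had an edgeR adjusted p of 0.0738 without 3DF replicate 3. In 2DF vs. 2DC UNC5D had -0.82 (adjusted p = 0.0409 in edgeR, SE 0.22).

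Within name prefixes, the log2 ratio of an embedded to a coated library was between 1.77 and 2.55 for NTN1, 2.11 and 3.59 for EPHA5, 1.47 and 1.96 for PLXND1, 0.44 and 1.57 for UNC5B, and -2.68 and -1.96 for UNC5D, in 5 pairs that share some libraries. The embedded and coated libraries of each of these genes did not overlap, so the direction had to be the same in all 5 pairs. It adds no further evidence.

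**Figure D5:**
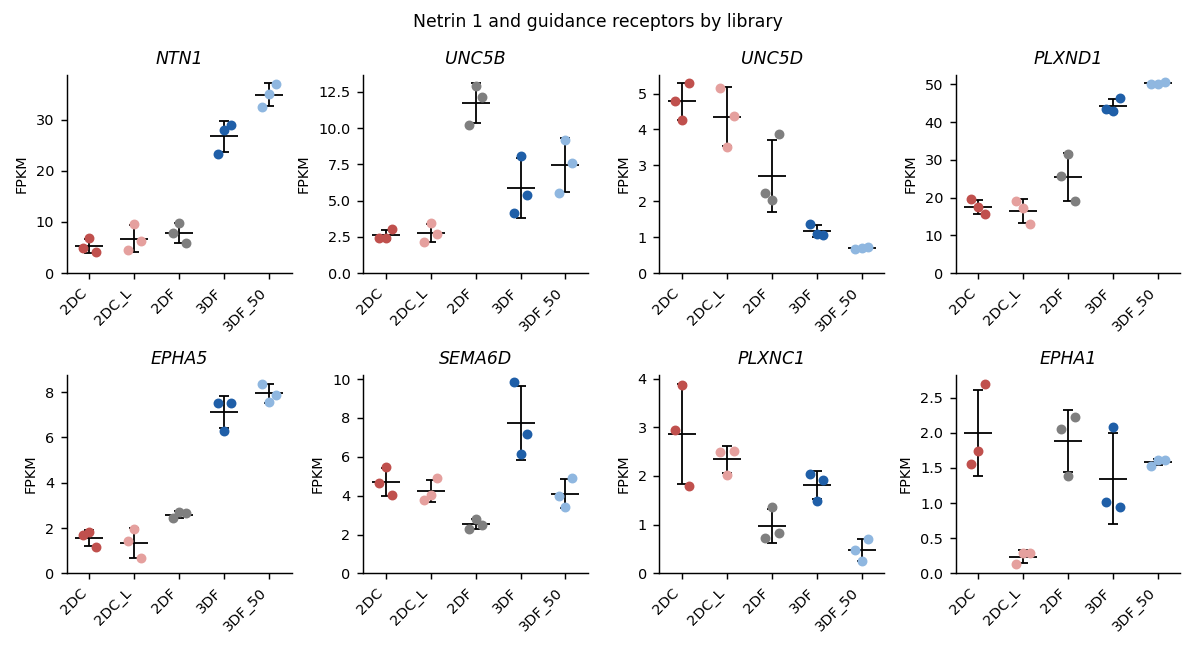
FPKM (y axis) of NTN1 and 7 other guidance genes in each library (points) of the 5 culture conditions (x axis), with the mean ± SD (bars, n = 3). NTN1, PLXND1 and EPHA5 were highest in the 6 embedded libraries, UNC5B was highest in 2DF, UNC5D was lowest in embedded cells, and EPHA1 was low only in 2DC_L.

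Few guidance genes were DEGs between embedded cells at the higher and the lower cell number. In 3DF vs. 3DF_50, 2 of 54 members (3.70%) were DEGs, both higher in 3DF, against 0.452% of all genes (0.316% higher). These were PLXNC1, with a log2 fold change of 1.90 (adjusted p = 0.0393 in edgeR, SE 0.32), and SLIT1, with 1.63 (adjusted p = 0.0403 in edgeR, SE 0.28), whose 3DF libraries were at 0.584, 0.425 and 0.455 FPKM. Both were close to the threshold. PLXNC1 had an adjusted p in edgeR of 0.0716 without 3DF replicate 3, 0.127 without 3DF_50 replicate 1 and 0.15 without 3DF_50 replicate 2. SLIT1 was a DEG only in the fit without 3DF replicate 1, and the edgeR adjusted p was 0.054 to 0.224 when any other library was left out. Over the 54 members tested the median log2 fold change was 0.15, and 17 had an unadjusted p under 0.05 in edgeR. For all 13285 genes tested the median was 0.013, and 2660 had such a p.

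Between coated dishes with and without digestion medium the only DEG among guidance genes was a receptor, EPHA1. In 2DC vs. 2DC_L, 1 of 53 members (1.89%) was a DEG, against 0.265% of all genes (0.257% higher). EPHA1 (chromosome 7, 8696543 to 8711410), an ephrin-A receptor of epithelia, was at 1.56, 1.74 and 2.70 FPKM in 2DC, 0.132, 0.292 and 0.288 in 2DC_L, 2.05, 1.38 and 2.23 in 2DF, 1.01, 2.09 and 0.943 in 3DF, and 1.53, 1.61 and 1.61 in 3DF_50. The 3 libraries without digestion medium were low, with 12 to 26 counts, and the 12 with it overlapped one another. EPHA1 was higher by 3.09 in 2DC vs. 2DC_L (adjusted p = 0.00944 in edgeR, SE 0.36), with an adjusted p of 0.0532 without 2DC_L replicate 3, and by 2.76 in 3DF_50 vs. 2DC_L (adjusted p = 9.05e-05 in edgeR, SE 0.31). Where all 6 libraries had the medium, in 3DF vs. 2DC, the value was -0.57 (adjusted p = 0.323 in edgeR, SE 0.35). Early response genes such as FOS and EGR1 were also low in 2DC_L. The 15 of 16 listed genes in the table summed to 193 to 216 FPKM in 2DC_L, 2085 to 2293 in 2DC, 4268 to 4826 in 2DF, 3056 to 5910 in 3DF and 2619 to 3303 in 3DF_50. Among the conditions with digestion medium their sum was lowest in 2DC, where the mean of EPHA1 was highest (2.00 FPKM). Corneal epithelial markers summed to 9.07 to 17.3 FPKM in 2DC_L and 3.96 to 34.3 FPKM in 2DC, ranges that overlapped. Most of these sums was CLDN1, with means of 11.4 FPKM in 2DC_L and 14.4 FPKM in 2DC. KRT5 was at 0.279 FPKM in 2DC_L and 0.240 FPKM in 2DC, and KRT12 at 0 in both. The part of the epithelial and early response genes in the result was not tested.

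The change from coated dish to matrix was compared between 3DF vs. 2DC and 3DF_50 vs. 2DC_L, which have no library in common although some of their libraries share a name prefix, in 1 fit. Only EPHA1 differed, out of 55 members tested, where 0.327% of all genes did (0.241% lower), with a difference of -3.35 between its log2 fold changes (adjusted p = 0.0118 in edgeR, SE 0.50). DESeq2 also called PLXNC1 (adjusted p = 0.0154), for which edgeR gave a difference of 1.61 (adjusted p = 0.156).

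Other genes of guidance signalling were listed apart from the members. Of 32 other guidance ligands and co-receptors, 30 are in the table and 20 were tested in 3DF vs. 2DC, with 2 higher DEGs and 1 lower and a median of 0.03 on the log2 scale. Of all genes tested there, 3.24% were higher and 4.32% lower DEGs. The largest was CNTN2, a contactin of axons, at 3.66 ± 0.252 FPKM in 2DC and 27.5 ± 8.48 FPKM in 3DF, a difference of 2.89 on the log2 scale (adjusted p = 0.000206 in edgeR, SE 0.23). In 3DF_50 vs. 2DC_L 1 of 18 was higher, CNTN2 again at 2.93 (adjusted p = 0.00011 in edgeR, SE 0.34), and 4 were lower. The shares over all genes were 5.05% higher and 8.47% lower. The other 4 comparisons of this list gave at most 1 DEG in each direction, where 0.265% to 4.96% of all genes were DEGs.

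Of 70 cytoplasmic effectors of guidance receptors, 64 are in the table and 61 were tested in 3DF vs. 2DC, with 2 higher DEGs and 2 lower and a median of 0.02. The share of DEGs over all genes was 7.56% there. MYL9, a regulatory myosin light chain of contractile cells, was at 34.8 ± 11.1 FPKM in 2DC and 4.59 ± 2.20 FPKM in 3DF and fell by 2.93 on the log2 scale (adjusted p = 0.00151 in edgeR, SE 0.37). It also fell by 2.23 in 2DF vs. 2DC (adjusted p = 0.000727 in edgeR, SE 0.24) and by 3.46 in 3DF_50 vs. 2DC_L (adjusted p = 1.27e-06 in edgeR, SE 0.19). Myofibroblast markers summed to 3.40 to 10.8 FPKM on coated dishes, 1.68 to 5.53 FPKM in 2DF and 0.492 to 1.14 FPKM in embedded cells. From 2DC to 2DF the mean fell for TAGLN (4.56 to 2.27 FPKM) and ACTA2 (1.32 to 0.358 FPKM). It rose for MYH11 (0.355 to 0.642 FPKM), ACTG2 (0.0195 to 0.0977 FPKM) and DES (0.198 to 0.296 FPKM). The part of these markers was not tested. CHN2, a Rac GTPase-activating protein, rose by 2.88 in 3DF vs. 2DC (adjusted p = 0.0278 in edgeR, SE 0.71) at no more than 0.239 FPKM. Of the effectors, 1 was a higher and 2 were lower DEGs in 2DF vs. 2DC, and likewise in 3DF vs. 2DF and in 3DF_50 vs. 2DC_L. With 59, 59 and 58 tested, the shares over all genes were 4.96%, 3.78% and 13.5%.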

How the data were processed

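Bulk RNA-seq of 15 libraries from rabbit keratocytes was analysed. The authors' deposited counts are whole reads per gene, aligned to oryCun2 with HISAT2 2.0.5 and counted with featureCounts 1.5.0-p3, and the deposited FPKM are the same counts per gene length and per library size set by the authors. Whether counting used strand is not given in the sources used here. Conditions and replicate numbers were read from the labels. Every sample column was used.

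In R 4.3.3, each pair of conditions was fitted alone with edgeR 4.0.16. Genes passed filterByExpr (minimum count 10), libraries were scaled by TMM, and the quasi-likelihood F test was two-sided, with p-values adjusted over every gene tested. SE is the log2 fold change divided by the square root of F. The study's own tests used DESeq2. Alternatives were DESeq2 1.42.0, its size factors, library size alone, other filters, no fold limit, all conditions in 1 fit, replicate or prefix blocks, limma 3.58.1 on log2(FPKM + 1) or log2(FPKM + 0.1), and leaving out each library. Scripts were tested on simulated data. Figures used Python 3.11.15 with pandas 2.3.3 and matplotlib 3.10.9.

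The members, gene lists and alternatives were chosen with earlier results of these data known. Members are named with values if they were DEGs in any of the 6 comparisons, had the highest mean in their family, or had at most 3 counts everywhere; SEMA3A, SEMA3G, SLIT2, the neuropilins and the Eph and ephrin genes given by range were added after their values were seen, and other guidance genes are named from a |log2 fold change| of 2. Same-numbered libraries had correlations of deviations from the condition mean between -0.10 and 0.31, not all above 0.1 in any comparison, so replicate numbers were not taken as pairs. Ratios of single libraries with a shared prefix were added after the data were seen.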

Additional observations from a re-analysis of the deposited data

Results flagged for a closer look

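EPHA1 was the member whose change from coated dish to matrix differed between 3DF vs. 2DC and 3DF_50 vs. 2DC_L, by a test of the difference itself. The difference between its log2 fold changes in 3DF vs. 2DC and 3DF_50 vs. 2DC_L was -3.35 (adjusted p = 0.0118 in edgeR, SE 0.50), and it was called in all 12 fits without 1 library. The 3DF and 2DC libraries overlapped, and the 3DF_50 libraries were all above those of 2DC_L, the condition without digestion medium.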

How the results depend on the processing

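With DESeq2, its size factors in edgeR, no filter on low counts or all 5 conditions in the fit, the number of members called stayed within 1.5 times of the reported number in each comparison, except that DESeq2 gave 2 for the difference between the changes. Without the fold limit the counts were 26 in 3DF vs. 2DC, 24 in 2DF vs. 2DC, 32 in 3DF_50 vs. 2DC_L and 37 over the 6 comparisons. For the 37 the share over all genes was not computed. With the library prefix as a block in a fit of all 5 conditions, 0 members were called by edgeR in 2DF vs. 2DC (14 at an unadjusted p under 0.05), 3DF vs. 2DF (11) and 3DF vs. 3DF_50 (16). 2DF shares only 1 prefix with any other condition. In that fit PLXNB3 had 0.18 in 2DF vs. 2DC (edgeR adjusted p = 0.96), the only reversed direction among 949 refitted values of 53 called results; the cause was not tested. Of the others, 836 kept their direction and the call, and 112 kept the direction alone. With limma on log2(FPKM + 1) the counts were 6 in 2DF vs. 2DC, 3 in 3DF vs. 2DF and 0 in 3DF vs. 3DF_50, the same with no filter, where 2DC vs. 2DC_L also gave 0, and log2(FPKM + 0.1) gave 0 in 3DF vs. 3DF_50 (15 to 19 members at an unadjusted p under 0.05 in limma, and 4 in 2DC vs. 2DC_L). Scaling by library size alone gave 1 in 3DF vs. 3DF_50. It moved the median over all genes, on the log2 scale, to 0.19 in 3DF vs. 2DC, 0.11 in 2DF vs. 2DC and -0.15 in 3DF vs. 3DF_50, with 5 members higher and 7 lower in 3DF vs. 2DC as before.

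Leaving out 1 library gave 9 to 12 calls in 3DF vs. 2DC, 6 to 11 in 2DF vs. 2DC (6 without 2DC replicate 2 or 2DF replicate 1), 3 to 6 in 3DF vs. 2DF (3 without 3DF replicate 3 or 2DF replicate 3), 0 to 3 in 3DF vs. 3DF_50 (0 without 3DF replicate 3, 3DF_50 replicate 1 or 3DF_50 replicate 2), 0 to 1 in 2DC vs. 2DC_L (0 without 2DC_L replicate 3), 21 to 26 in 3DF_50 vs. 2DC_L and 1 to 2 for the difference (2 without 3DF_50 replicate 3). With the replicate number as a block the counts were 12 in 3DF vs. 2DC, 10 in 2DF vs. 2DC, 7 in 3DF vs. 2DF, 2 in 3DF vs. 3DF_50, 1 in 2DC vs. 2DC_L and 22 in 3DF_50 vs. 2DC_L. The block took SLIT1 in 3DF vs. 3DF_50 over the threshold (edgeR adjusted p = 0.0515) and no other call reported. In 2DC vs. 2DC_L and 3DF_50 vs. 2DC_L each library of the first condition correlated best with its own number. At 14626982 to 31804255 counts a library, 14 members with means of at most 0.162 FPKM could not be tested.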
